A study of Homo sapiens with 10 samples.

Results

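The genes of oxidative phosphorylation (OXPHOS) were described in T47D spheroids of wild-type cells and of clones labelled as SAMHD1 knock-outs. They were chosen by name: the 13 protein-coding genes of the mitochondrial chromosome and the nuclear genes whose symbols start with the prefixes used for subunits of complexes I to V. In all, 108 of the 13920 genes in the count table met this rule. They were 13 mitochondrial subunit genes, 81 nuclear subunit genes, 12 assembly factors of complexes I and II that share the prefixes, and 2 readthrough genes. The nuclear subunits comprised 37 genes of complex I, 4 of complex II, 10 of complex III, 13 of complex IV (NDUFA4 and NDUFA4L2 included) and 17 of complex V. The mitochondrial genes comprised 7 of complex I, 1 of complex III, 3 of complex IV and 2 of complex V. Another 7 protein-coding symbols that meet the rule were not listed in the table, which holds only genes counted in every library: COX7B2, COX8C, COX6A2, COX7A1, COX6B2, COX4I2 and ATP5MGL.

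T47D is an established luminal breast cancer cell line, and SAMHD1 is a dNTP triphosphohydrolase. RNA was sequenced from spheroids of wild-type (WT) cells and of 2 SAMHD1 knock-out (KO) clones, clone A1 and clone A2, with no other treatment named. Libraries of WT and clone A1 carry the experiment numbers 10, 11, 15 and 16, and those of clone A2 the numbers 15 and 16 only. The labels do not say what separates the experiments, so the 6 KO libraries mix clone with experiment, and each clone is 1 cell population. Libraries held 40077369 to 51311482 counts on genes. SAMHD1 stood at 49.8 to 56.4 CPM (counts scaled to the library total times its TMM factor) in the 4 WT libraries. It stood at 22.5 and 23.0 CPM in clone A1 of experiments 10 and 11, at 6.44 and 6.15 CPM in clone A1 of experiments 15 and 16, and at 23.6 and 20.2 CPM in clone A2. Every KO library was below every WT library, and clone A1 of experiments 15 and 16 was lower than the other KO libraries, but SAMHD1 RNA was counted in each of them. Of 9 luminal epithelial markers 8 were listed, with a summed level of 120.8 to 129.6 CPM in WT and 108.0 to 118.1 CPM in clone A1 of experiments 10 and 11. In 15 and 16 the sum was 113.3 to 114.5 CPM in WT, 106.4 to 108.5 CPM in clone A1 and 101.7 to 105.6 CPM in clone A2, so within each pair the clones were below WT. KRT18 stood at 36.3 to 60.3 CPM and GATA3 at 15.4 to 24.8 CPM, while EPCAM (0.348 to 1.78 CPM), CDH1 (0.684 to 2.16 CPM) and ESR1 (0.183 to 1.59 CPM) were low and KRT19 was not listed. Of 7 leukocyte markers 3 were listed, summing to 2.601 to 3.705 CPM, and PTPRC, CD3D and CD3E were not listed. Of 7 markers of fibroblasts and endothelium 3 were listed: COL1A1 (5.91 to 11.4 CPM), COL3A1 (1.66 to 17.9 CPM) and VWF (0.799 to 1.69 CPM), while COL1A2, PDGFRB, PECAM1 and CDH5 were not. Their sum was 27.48 and 28.03 CPM in WT of experiments 10 and 11 and 19.63 to 21.68 CPM in WT of 15 and 16. The sum was lower in the clones, at 19.79 and 19.82 CPM in clone A1 of experiments 10 and 11. In 15 and 16 it was 13.04 to 15.21 CPM in clone A1 and 13.26 to 14.31 CPM in clone A2. The 3 genes did not fall as a set. Their median log2 fold change in 15 and 16 was -0.0982 in clone A1 and 0.000344 in clone A2. By the edgeR test described further on, 1 of the 3 passed as lower in each clone. The part of either list in the results was not tested.

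Oxidative phosphorylation passes electrons from NADH (complex I) and succinate (complex II) through complex III to oxygen at complex IV, and the proton gradient this builds drives ATP synthesis by complex V. Complexes I, III, IV and V are assembled from subunits of both genomes, whereas complex II is made by nuclear genes alone. Mitochondrial genes are transcribed by their own polymerase as long polycistronic RNAs that are cut largely at transfer RNAs and, MT-ND6 apart, polyadenylated, while the nuclear genes, spread here over 22 chromosomes, are transcribed one by one.

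Neighbouring mitochondrial genes share bases, and this bears on how their reads were assigned. MT-ATP8 and MT-ATP6 (complex V) share 46 bases at chrM:8527-8572, and MT-ND4L and MT-ND4 (complex I) share 7 bases at chrM:10760-10766, all on the plus strand of GRCh38. The shared bases are in capitals in the following windows, chrM:8515-8584 and chrM:10748-10778. Each pair is carried on 1 bicistronic mRNA, and how reads from the shared stretch and the rest of that mRNA were divided between the genes of a pair is not given in the sources used here, so levels of single members of these pairs are uncertain.
MT-ATP8/MT-ATP6: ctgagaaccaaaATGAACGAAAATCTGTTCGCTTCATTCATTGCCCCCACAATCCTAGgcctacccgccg
MT-ND4L/MT-ND4: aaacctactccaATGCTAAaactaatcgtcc

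Promoters are shown for 3 nuclear genes that fell in both clones in experiments 15 and 16, with values given further on: COX5A (complex IV), UQCRFS1 (complex III) and NDUFS7 (complex I). Each window is from RefSeq on GRCh38.p14 and runs 5′ to 3′ on the gene's strand from 250 bases before to 50 bases after the start. COX5A lies at chr15:74938024-74938323 on the minus strand, UQCRFS1 at chr19:29213102-29213401 on the minus strand and NDUFS7 at chr19:1383657-1383956 on the plus strand. Capitals mark exact matches, on either strand, to motifs of factors known from OXPHOS promoters: NRF1 (a GC-rich motif with 1 free position, searched on both strands), the ETS family to which GABPA belongs (CCGGAAG) and YY1 (AAGATGGC), none of which contains another.
COX5A: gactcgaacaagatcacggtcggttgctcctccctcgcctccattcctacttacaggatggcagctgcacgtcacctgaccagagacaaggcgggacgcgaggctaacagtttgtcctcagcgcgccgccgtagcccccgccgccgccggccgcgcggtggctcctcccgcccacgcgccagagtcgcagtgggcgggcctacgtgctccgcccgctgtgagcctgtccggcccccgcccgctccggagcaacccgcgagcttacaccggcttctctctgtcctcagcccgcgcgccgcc
UQCRFS1: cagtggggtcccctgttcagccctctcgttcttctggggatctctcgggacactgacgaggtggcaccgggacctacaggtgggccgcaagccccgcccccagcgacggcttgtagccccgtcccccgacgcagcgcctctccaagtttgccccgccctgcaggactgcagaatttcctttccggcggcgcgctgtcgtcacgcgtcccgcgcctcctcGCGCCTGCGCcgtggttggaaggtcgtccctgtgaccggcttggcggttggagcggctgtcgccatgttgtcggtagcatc
NDUFS7: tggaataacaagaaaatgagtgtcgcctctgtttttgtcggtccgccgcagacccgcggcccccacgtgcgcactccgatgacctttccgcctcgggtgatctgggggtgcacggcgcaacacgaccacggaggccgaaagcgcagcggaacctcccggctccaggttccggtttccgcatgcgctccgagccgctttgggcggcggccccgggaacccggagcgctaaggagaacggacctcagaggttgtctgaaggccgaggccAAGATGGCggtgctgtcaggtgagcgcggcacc
UQCRFS1 held 1 NRF1 match, NDUFS7 held 1 YY1 match and COX5A held none of these letters. ATP5MK, which also fell in both clones and is not shown, held 3 ETS matches. ATP5F1D fell in both clones as well, but no window was found for it.

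Promoter windows were found for 67 of the 81 nuclear subunit genes. The NRF1 letters occurred in 16 of the 67 (23.9%), against 12.7% of the 11366 genes in the count table that have a window. A gene counted if any of its windows matched. By complex, the NRF1 letters were found for 6 of 32 genes of complex I, 2 of 3 of complex II, 4 of 7 of complex III, 0 of 12 of complex IV and 4 of 13 of complex V. The ETS letters occurred in 21 of the 67 (31.3%), against 21.2% of the genes in the table that have a window. YY1 letters were found in 12 of the 67 (17.9%), against 6.04%. A match is a description of the letters and not a site, and its absence says nothing about the factor.

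Reads from the 13 mitochondrial genes made up a large and variable part of every library. Their share of all counts was 7.79%, 8.41%, 10.7% and 9.92% in WT of experiments 10, 11, 15 and 16. In clone A1 of the same experiments it was 8.48%, 8.18%, 13.9% and 10.7%. Clone A2 of experiments 15 and 16 had 10.04% and 9.05%. The group means were 9.19% ± 1.32 (SD, n = 4) in WT, 10.3% ± 2.62 (SD, n = 4) in clone A1 and 9.54% ± 0.694 (SD, n = 2) in clone A2, and the ranges of the groups overlapped. The difference between all KO and all WT libraries was 0.854 percentage points, less than the SD within WT, and it was 0.0908 points without clone A1 of experiment 15, 0.385 points without WT of experiment 10 and 1.34 points without WT of experiment 15. With counts divided by transcript length it was 1.79 points. Experiments 15 and 16 supply 4 of the 6 KO libraries but 2 of the 4 WT libraries, and within the pairs the KO minus WT difference was 0.231 points in experiments 10 and 11 and 0.617 points in 15 and 16. Set against WT of its own experiment, clone A1 was higher by 0.693 points in experiment 10, 3.20 in 15 and 0.756 in 16 and lower in 11 (-0.23 points), while clone A2 was lower in both (-0.625 and -0.863 points). What did separate without overlap was the experiment number: all 6 libraries of experiments 15 and 16 were above all 4 of experiments 10 and 11. These shares describe reads of polyadenylated RNA, in which fewer mitochondria and less RNA per mitochondrion cannot be told apart, nor can fewer cells of a type and less RNA per cell.

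Within the OXPHOS subunit counts the mitochondrial genome held most of the reads. Its share was 89.1%, 89.7%, 91.6% and 91.3% in WT, 90.1%, 89.8%, 93.6% and 92.1% in clone A1, and 91.1% and 90.5% in clone A2, in the order of experiments above. WT averaged 90.4% ± 1.19 (SD, n = 4) and the KO libraries 91.2% ± 1.46 (SD, n = 6), a difference of 0.786 points that was 0.297 points without clone A1 of experiment 15 and 0.350 points without WT of experiment 10. Here too experiments 15 and 16 lay above experiments 10 and 11 in every library, and WT and KO overlapped. Within experiments, clone A1 was above WT in 4 of 4 (0.967, 0.0986, 2.08 and 0.870 points) and clone A2 below it in 2 of 2 (-0.505 and -0.797 points). The KO minus WT difference was 0.533 points in experiments 10 and 11 and 0.411 points in 15 and 16. Counting error adds little to these values: the widest 95% Wilson interval on a share reached 0.0303 percentage points to either side, and intervals cover counting error only.

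Nuclear subunit genes took a steadier share. Of the counts on nuclear genes they held 1.03%, 1.05%, 1.10% and 1.05% in WT, 1.02%, 1.01%, 1.09% and 1.02% in clone A1, and 1.10% and 1.05% in clone A2. The means were 1.06% ± 0.0281 (SD, n = 4) in WT and 1.05% ± 0.0377 (SD, n = 6) in KO, a difference of -0.0115 points that was below the SD, and the groups overlapped. Its sign was positive without WT of experiment 15 (0.00173 points) and with counts divided by transcript length (0.0203 points). Within experiments, however, each KO library lay below WT, with differences of -0.0112, -0.0423, -0.00658 and -0.0336 points in clone A1 and -0.00402 and -0.00473 points in clone A2. The clone A2 differences were the smallest, and no counting interval was computed for this share, so their sign is uncertain. The pair means differed by -0.0268 points in experiments 10 and 11 and -0.0122 points in 15 and 16. Thus the variation of the OXPHOS total, from 8.74% to 14.8% of all counts, followed the mitochondrial reads.

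**Figure D1:**
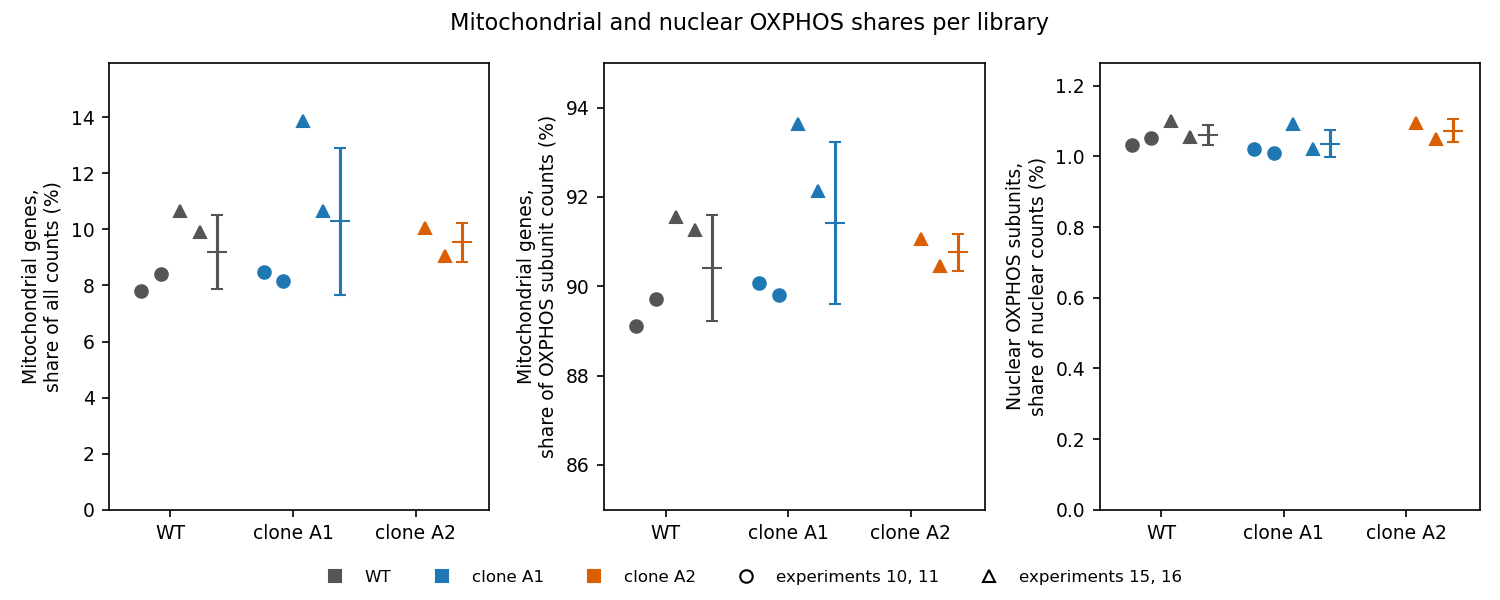
Share of all counts from the 13 mitochondrial genes (left), their share of OXPHOS subunit counts (middle, axis from 85% to 95%) and share of nuclear counts from the 81 nuclear subunit genes (right), in percent, by group. Points are libraries, circles for experiments 10 and 11 and triangles for 15 and 16, with the group mean and SD beside them, and in the left and middle panels every triangle lies above every circle.

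The balance of the 2 genomes differed by complex. In complex IV, which has 3 mitochondrial core subunits, mitochondrial genes held 95.8% to 97.3% of the counts. In complex I, which has 7, they held 91.0% to 95.003%. In complex III, where cytochrome b (MT-CYB) is the single mitochondrial subunit, the range was 76.97% to 87.3%, and in complex V, with MT-ATP6 and MT-ATP8, 70.9% to 82.4%. Complex II had no mitochondrial gene. The order of the complexes (IV, I, III, V) held in each library. Complex V varied most: WT libraries had 70.9%, 73.9%, 77.7% and 77.1%, clone A1 had 73.8%, 73.7%, 82.4% and 79.0%, and clone A2 had 76.7% and 74.5%. As for the sums, the highest value of each of the 4 complexes was in clone A1 of experiment 15.

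**Figure D2:**
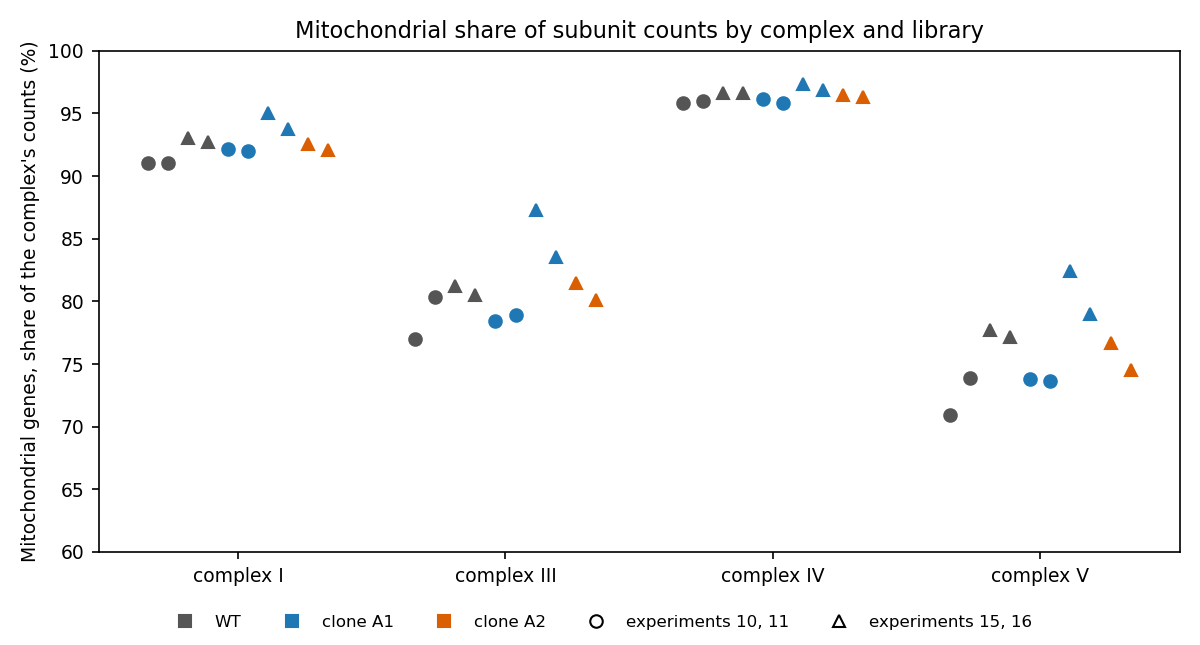
Mitochondrial share of each complex's subunit counts in percent (y axis from 60% to 100%), 1 point per library, coloured by group, with circles for experiments 10 and 11 and triangles for 15 and 16. Complexes IV and I lie above 90% in each library and complexes III and V between 70.9% and 87.3%.

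Nuclear counts were divided among the complexes in nearly fixed proportions. Complex V took 33.1% to 35.8% of the nuclear subunit counts, complex I 28.1% to 30.7%, complex IV 17.1% to 18.0%, complex III 12.1% to 12.6% and complex II 5.79% to 6.53%. Of the mitochondrial counts, complex IV took 44.4% to 49.2%, complex I 34.96% to 39.1%, complex V 10.3% to 11.2% and complex III 4.85% to 5.85%. Thus complex IV led among mitochondrial reads and complex V among nuclear reads.

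Levels of single genes were compared per length, as CPM per kb of transcript, in the WT libraries. MT-CO1, the catalytic subunit of complex IV, was highest at 17040 ± 2556 CPM per kb (SD, n = 4), followed by MT-CO2 at 13590 ± 1251, MT-ATP6 at 12100 ± 1611 and MT-CO3 at 11230 ± 1126. MT-ND4 (9396 ± 2020), MT-ATP8 (8874 ± 2226), MT-ND2 (8835 ± 1293) and MT-ND4L (7738 ± 1627) came next. Lower came MT-CYB (4172 ± 535), MT-ND1 (3589 ± 315), MT-ND3 (2765 ± 400) and MT-ND5 (2268 ± 485). MT-ND6, the only member transcribed from the opposite strand of mitochondrial DNA and one whose mRNA is known to lack a poly(A) tail, was lowest at 772 ± 98.6 CPM per kb in these libraries of poly(A)-selected RNA. Since the genes are measured in the same libraries, the SDs hold a shift they share. Each gene in this order was above the next in all 4 WT libraries except MT-ND4 over MT-ATP8 (3 of 4) and MT-ATP8 over MT-ND2 (2 of 4), whose order is not resolved.

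Nuclear subunit genes ran from 0.545 CPM per kb in WT (NDUFA4L2) to 512 (ATP5F1B, the catalytic beta subunit of complex V), with a median of 96.6. Medians by complex were 88.2 for I, 85.8 for II, 73.7 for III, 156 for IV and 154 for V, and assembly factors had a median of 15.8. Every mitochondrial gene was therefore above every nuclear subunit gene per length. Where subunits have alternative isoforms, the widely expressed form was the one measured: COX4I1 stood at 260 CPM per kb, COX6A1 at 384, COX6B1 at 278, COX7A2 at 235 and COX8A at 327, and COX4I2, COX6A2, COX6B2, COX7A1 and COX8C were not listed. NDUFA4 stood at 67.4 CPM per kb against 0.545 for its paralog NDUFA4L2, and COX7A2L, a factor of supercomplex assembly, at 33.2. Among the 3 genes that encode the same c subunit of complex V, ATP5MC2 (474 ± 18.1) was above ATP5MC1 (89.4 ± 15.7) and ATP5MC3 (80.2 ± 1.36), which did not differ beyond their SD. The gap to ATP5MC3 rests largely on the canonical transcript lengths used, 632 bases against 2587. Before division by length ATP5MC2 stood at 286.8 to 309.9 CPM and ATP5MC3 at 202.4 to 210.3 CPM. The closeness of ATP5MC1 and ATP5MC3 holds per length only. ATP5MC1, with 646 bases, stood at 47.59 to 69.22 CPM before division, below ATP5MC3 in each WT library. UQCRHL is nearly identical to UQCRH, so its counts, 104 at the lowest, are uncertain.

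The split of the mitochondrial counts among the 13 genes separated all 3 groups without overlap for 1 gene, MT-ND2, a membrane-arm core subunit of complex I. MT-ND2 held 10.2%, 9.66%, 10.1% and 9.88% of the mitochondrial counts in WT. It held 11.4%, 11.5%, 11.4% and 11.1% in clone A1, and 8.82% and 8.58% in clone A2. The means were 9.95% ± 0.231 (SD, n = 4), 11.3% ± 0.156 (SD, n = 4) and 8.70% ± 0.168 (SD, n = 2), so that clone A1 lay above WT and clone A2 below it in every library. No p is attached to these shares, and MT-ND2 was singled out of 13 shares of the same total. In CPM its groups overlapped, at 8009 to 10820 in WT, 9433 to 16180 in clone A1 and 7435 to 8702 in clone A2. By CPM, 0 of the 13 mitochondrial genes separated all KO from all WT libraries. MT-ND5, another membrane-arm subunit, held 4.09%, 4.17%, 4.71% and 4.66% in WT, 3.91%, 3.88%, 5.31% and 5.23% in clone A1, and 5.92% and 6.19% in clone A2. Its share was highest in clone A2, and in clone A1 it was below WT in experiments 10 and 11 and above WT in 15 and 16. The share of MT-CO3, a core subunit of complex IV, was 9.07% to 10.1% in WT, 8.75% to 10.025% in clone A1 and 8.01% and 8.42% in clone A2. Both clone A2 values lay below all others.

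Other shares moved with the experiment number. MT-ND4 held 13.2% and 12.8% in WT and 12.97% and 13.1% in clone A1 of experiments 10 and 11, and 14.5% to 15.5% in the 6 libraries of experiments 15 and 16. MT-ND1, in contrast, held 3.91% to 4.49% in experiments 10 and 11 and 3.04% to 3.41% in experiments 15 and 16. These genes thus moved in opposite directions as parts of the mitochondrial total. MT-CO1 took 26.7% to 29.0% in all libraries, the largest part.

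**Figure D3:**
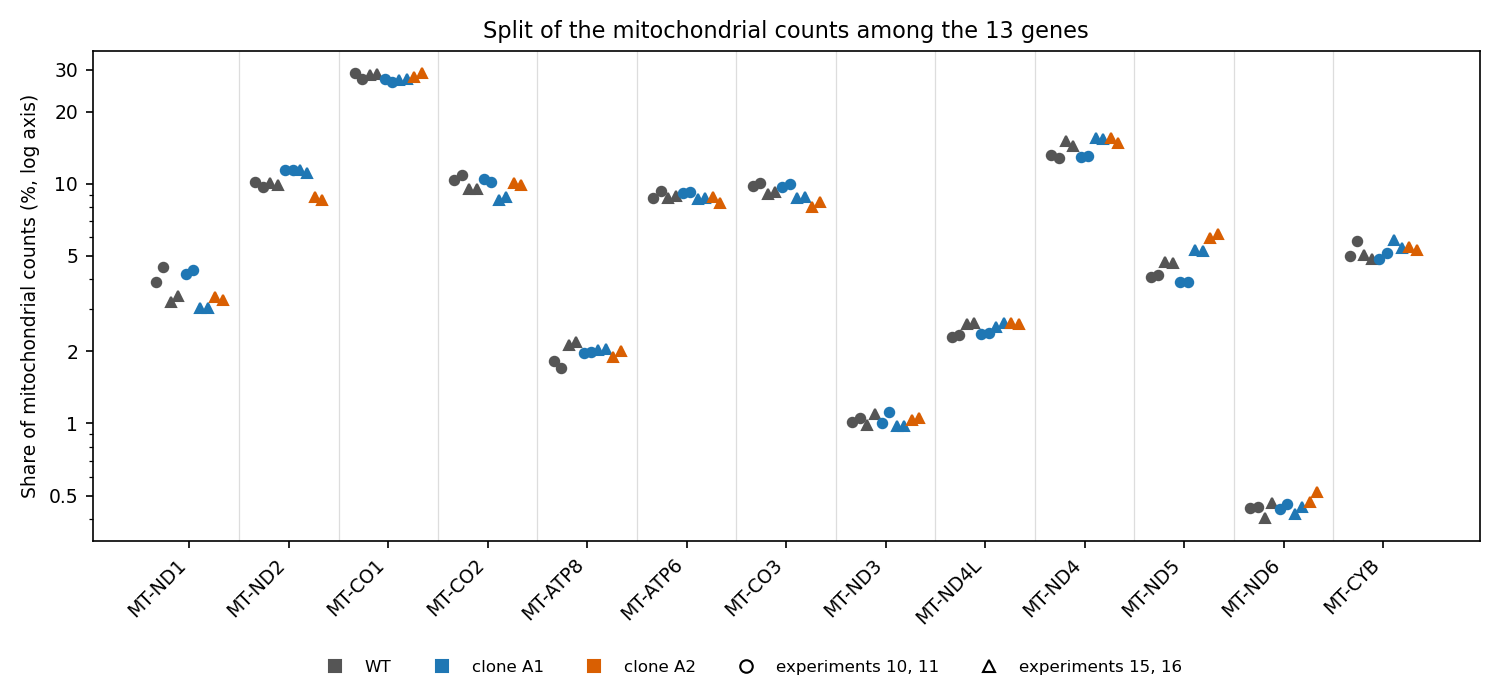
Share of the mitochondrial counts held by each of the 13 genes, in percent on a log axis, 1 point per library in the order WT, clone A1, clone A2, with circles for experiments 10 and 11 and triangles for 15 and 16. For MT-ND2 the groups do not overlap, with clone A1 between 11.1% and 11.5%, WT between 9.66% and 10.2% and clone A2 at 8.82% and 8.58%.

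Single genes were then tested with edgeR's quasi-likelihood test, with Benjamini-Hochberg adjustment over all 13920 genes at a threshold of 0.05. All 108 OXPHOS genes were tested. Whether the labelled experiments are separate cultures is not stated in the labels, while the methods speak of biological duplicates, so p-values measure the spread between these libraries. In clone A1 against WT within experiments 15 and 16, 1 OXPHOS gene rose and 5 fell. Of all genes 13.2% passed, and 6.74% passed as lower, so the OXPHOS genes did not pass more often than the rest.

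COX5A encodes a nuclear subunit of complex IV. It stood at 143.4 and 133.9 CPM in WT of experiments 15 and 16, at 116.9 and 109.5 CPM in clone A1 and at 106.6 and 99.02 CPM in clone A2. In experiments 10 and 11 it stood at 151.5 and 159.2 CPM in WT and 164.9 and 152.4 CPM in clone A1. Both clones were below WT in experiments 15 and 16, whereas WT and clone A1 overlapped in 10 and 11. In experiments 15 and 16 COX5A fell by 0.29 on the log2 scale in clone A1 (SE 0.0656, edgeR adjusted p = 0.00842) and fell by 0.43 in clone A2 (SE 0.0656, edgeR adjusted p = 0.000233). The change in clone A1 no longer passed without WT of experiment 15 (edgeR adjusted p = 0.1001) or with clone A1 of experiment 16 left out (edgeR adjusted p = 0.0586), while that in clone A2 passed whichever library was left out.

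UQCRFS1, the Rieske iron-sulfur protein of complex III, showed a similar layout. It stood at 93.99 and 86.51 CPM in WT of experiments 15 and 16, at 72.81 and 71.11 CPM in clone A1 and at 79.19 and 73.8 CPM in clone A2. In experiments 10 and 11 its levels were 98.82 and 94.75 CPM in WT and 98.54 and 93.97 CPM in clone A1. In experiments 15 and 16 all clone libraries were below both WT libraries, and in 10 and 11 WT and clone A1 overlapped. UQCRFS1 fell by 0.33 in clone A1 (SE 0.0666, edgeR adjusted p = 0.00472) and fell by 0.24 in clone A2 (SE 0.0663, edgeR adjusted p = 0.0166). Without WT of experiment 15 the adjusted p was 0.0649 in clone A1 and 0.194 in clone A2, and without clone A2 of experiment 16 it was 0.142 in clone A2.

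ATP5F1D, the delta subunit in the central stalk of complex V, stood at 78.72 and 70.78 CPM in WT of experiments 15 and 16, at 62.44 and 59.27 CPM in clone A1 and at 58.55 and 50.88 CPM in clone A2. NDUFS7, which carries an iron-sulfur cluster at the quinone-binding end of complex I, stood at 68.51 and 64.15 CPM in WT, 55.99 and 50.92 CPM in clone A1 and 58.87 and 49.47 CPM in clone A2. ATP5MK, a small membrane subunit of complex V, stood at 113.2 and 104.6 CPM in WT, 99.26 and 80.36 CPM in clone A1 and 92.82 and 85.71 CPM in clone A2. For these 3 genes no KO library of experiments 15 and 16 reached the WT range. In clone A1 ATP5F1D fell by 0.30 (SE 0.0774, edgeR adjusted p = 0.0200), NDUFS7 fell by 0.31 (SE 0.0824, edgeR adjusted p = 0.0214) and ATP5MK fell by 0.28 (SE 0.0860, edgeR adjusted p = 0.0448). With WT of experiment 15 left out their adjusted p was 0.181, 0.115 and 0.236, and with clone A1 of experiment 16 left out it was 0.104, 0.137 and 0.341. ATP5MK also no longer passed without either clone A2 library, which share the fit. Over the settings tried its log2 fold change in clone A1 ran from -0.4409 to -0.1316.

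**Figure D4:**
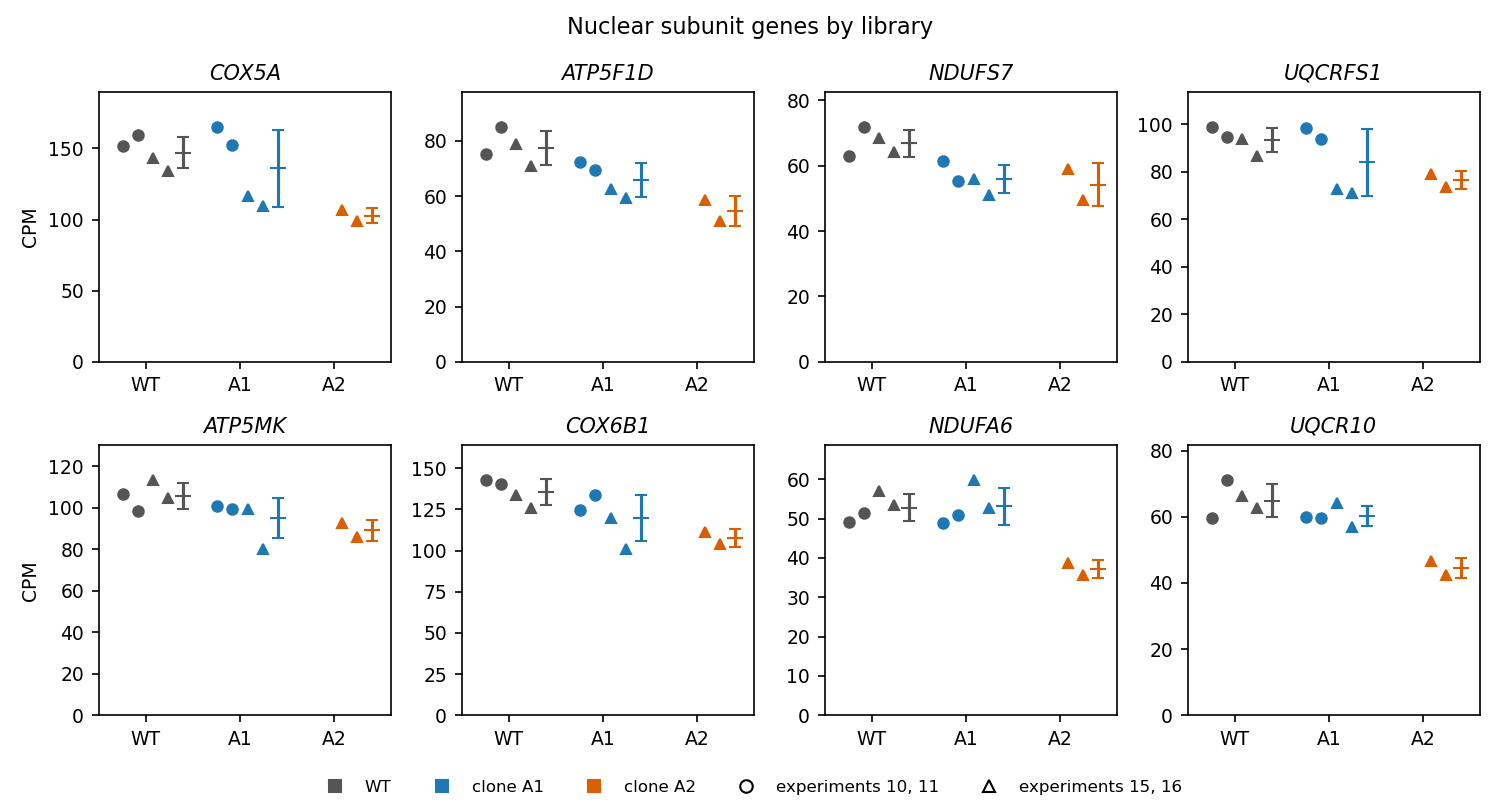
CPM of 8 nuclear subunit genes by group (y axes from 0), with circles for experiments 10 and 11, triangles for 15 and 16, and the group mean and SD beside the points. For COX5A the triangles of the clones lie between 99.02 and 116.9 CPM, below the WT triangles at 143.4 and 133.9 CPM, and for NDUFA6 and UQCR10 clone A2 alone lies below the other libraries.

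The mitochondrial genes of clone A1 all had positive fold changes against WT in experiments 15 and 16, with log2 values of 0.12 to 0.46 and a median of 0.23, against -0.0452 for nuclear subunits and 0.00257 for all genes. In CPM, clone A1 was above WT for 13 of 13 in experiment 15 and for 9 of 13 in experiment 16. A single one of them passed edgeR's test. MT-ND5 stood at 5070 and 4622 CPM in WT and at 7541 and 5523 CPM in clone A1, with a log2 fold change of 0.43 (SE 0.1225, edgeR adjusted p = 0.0420). DESeq2 called a different one, MT-ND6 (0.26, adjusted p = 0.0349). Over the settings tried the log2 fold change of MT-ND5 ran from 0.1849 to 0.6388. MT-ND5 no longer passed with DESeq2 (adjusted p = 0.159), without clone A1 of experiment 15 (edgeR adjusted p = 0.1604), without WT of experiment 16 (0.139) or without either clone A2 library (0.0649 and 0.0643). With the experiment number as a block, which pairs the libraries of an experiment, the count of OXPHOS genes rose from 6 to 25 (11 higher, 14 lower), against 23.3% of all genes. The blocked test called 6 mitochondrial genes higher: MT-ND2 (edgeR adjusted p = 0.00228), MT-ND4 (0.000624), MT-ND4L (0.00905), MT-ND5 (0.0224), MT-ATP6 (0.0240) and MT-CYB (0.0389). Single libraries weighed heavily on the unblocked count. Leaving out WT of experiment 15 gave 2, both higher, and leaving out clone A1 of experiment 16 gave 16, of which 15 were higher and 13 mitochondrial.

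In clone A2 against WT, 2 OXPHOS genes rose and 11 fell, against 21.2% of all genes passing and 11.4% passing as lower. The deepest falls were in a pair of genes on chromosome 22. NDUFA6, an accessory subunit of complex I, stood at 57.04 and 53.55 CPM in WT of experiments 15 and 16, at 59.7 and 52.76 CPM in clone A1 and at 38.73 and 35.63 CPM in clone A2. UQCR10, a small subunit of complex III, stood at 66.39 and 62.65 CPM in WT, 64.26 and 56.77 CPM in clone A1 and 46.74 and 42.33 CPM in clone A2. Clone A2 was below WT and clone A1 for both genes. NDUFA6 fell by 0.58 (SE 0.0776, edgeR adjusted p = 9.27e-05) and UQCR10 fell by 0.54 (SE 0.0766, edgeR adjusted p = 0.000149). The median log2 fold change of the genes within 10 Mb was -0.55 around NDUFA6 (167 genes) and -0.45 around UQCR10 (189 genes), and its part in the result was not tested.

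ATP5F1D fell by 0.45 in clone A2 (SE 0.0775, edgeR adjusted p = 0.000641), and with NDUFA6, UQCR10 and COX5A it passed under each of the 6 fits without 1 library and each of the 5 other settings. COX6B1, a subunit of complex IV on the intermembrane side, stood at 133.5 and 125.6 CPM in WT, 119.8 and 101.0 CPM in clone A1 and 111.3 and 103.8 CPM in clone A2. It fell by 0.27 in clone A2 (SE 0.0769, edgeR adjusted p = 0.0198). NDUFS7 (-0.30, edgeR adjusted p = 0.0176), ATP5MK (-0.29, edgeR adjusted p = 0.0252), ATP5PD of the peripheral stalk (-0.24, edgeR adjusted p = 0.0207) and NDUFB5 of the complex I membrane arm (-0.20, edgeR adjusted p = 0.0396) fell as well, and UQCRFS1 was described above. Leaving out WT of experiment 15 or clone A2 of experiment 16 ended each of these calls, and the other 4 such fits kept all but NDUFB5. Without WT of experiment 15 the edgeR adjusted p was 0.123 for COX6B1, 0.1007 for NDUFS7, 0.149 for ATP5MK and 0.182 for NDUFB5, and without clone A2 of experiment 16 it was 0.1403, 0.219, 0.188 and 0.118 in the same order. ATP5PD was lost without the same libraries (0.279 and 0.153), and NDUFB5 also without WT of experiment 16 (0.109) or clone A2 of experiment 15 (0.138).

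Both genes that rose in clone A2 belong to complex I. NDUFB8, a membrane-arm accessory subunit, stood at 108.0 and 102.7 CPM in WT, 122.2 and 112.1 CPM in clone A1 and 135.6 and 118.8 CPM in clone A2, with a log2 fold change of 0.27 (SE 0.0720, edgeR adjusted p = 0.0144). NDUFAB1, the mitochondrial acyl carrier protein, stood at 57.92 and 51.58 CPM in WT, 61.34 and 58.45 CPM in clone A1 and 66.54 and 64.02 CPM in clone A2, with 0.25 (SE 0.0706, edgeR adjusted p = 0.0184). The genes within 10 Mb had a median of -0.26 around NDUFB8, opposite to it, and 0.24 around NDUFAB1. ATP5MK, which lies on chromosome 10 as NDUFB8 does, fell by 0.29 in clone A2 with a median of -0.25 around it. Each of these calls was lost in 2 of the 6 fits without 1 library, with adjusted p up to 0.164 for NDUFB8 and 0.245 for NDUFAB1.

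One mitochondrial gene was called in clone A2. MT-CO3 stood at 9771 and 9179 CPM in WT, 12440 and 9332 CPM in clone A1 and 7910 and 7301 CPM in clone A2. It fell by 0.32 against WT (SE 0.108, edgeR adjusted p = 0.0475), which did not pass with DESeq2 (adjusted p = 0.2199) or without WT of experiment 15 (edgeR adjusted p = 0.2204), WT of experiment 16 (0.074), clone A2 of experiment 15 (0.0889) or clone A2 of experiment 16 (0.2597). Of the 13 mitochondrial genes 11 had negative fold changes in clone A2, with a median of -0.154, MT-ND5 at 0.21 and MT-ND6 at 0.03 being the others. With the block the count was 36 (7 higher, 29 lower), against 32.4% of all genes, and the mitochondrial genes called were 5, all lower: MT-ATP6, MT-ATP8, MT-CO3, MT-ND2 and MT-ND4L. Without WT of experiment 15 the unblocked count was 6, and without clone A2 of experiment 16 it was 8.

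**Figure D5:**
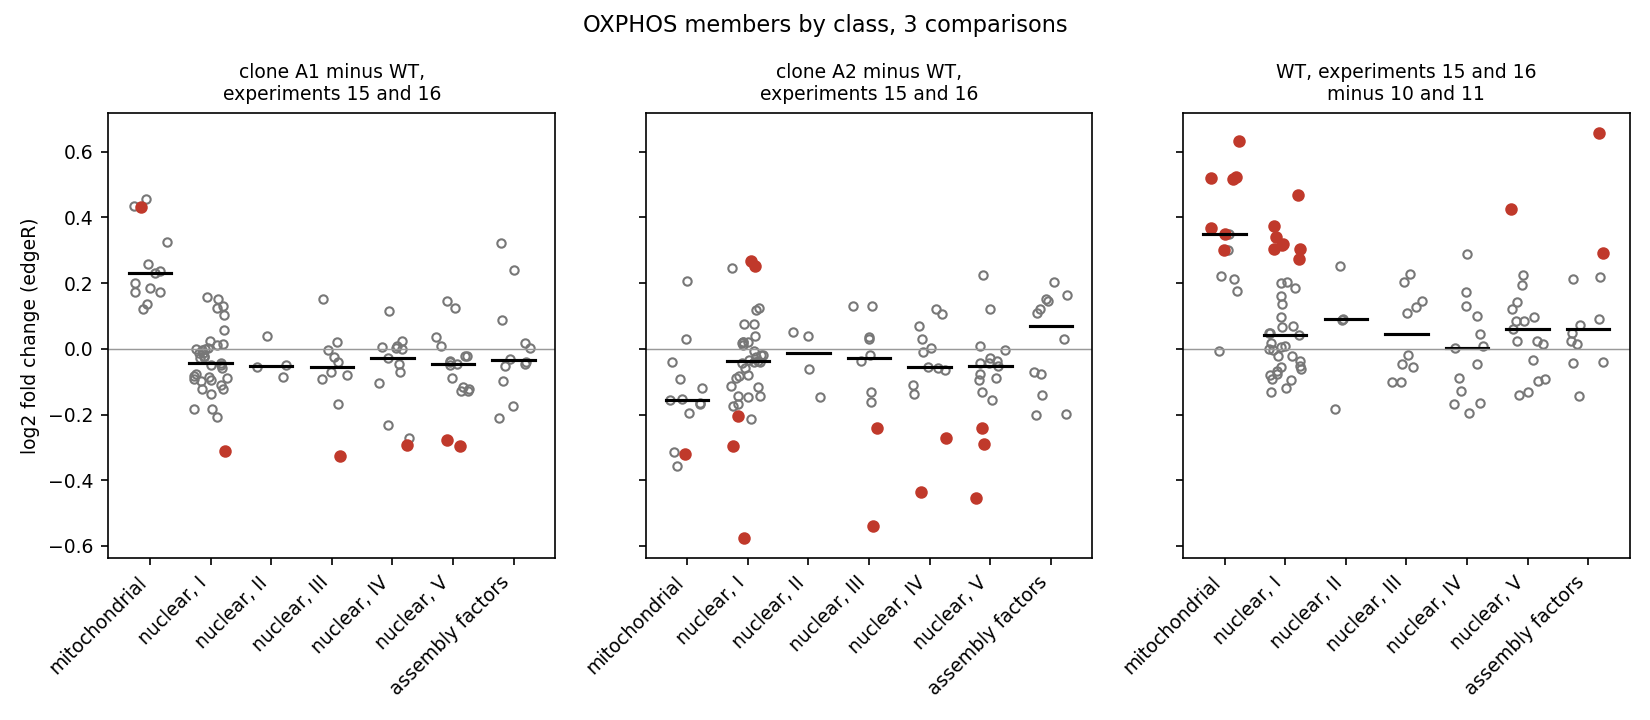
log2 fold changes (edgeR) of the mitochondrial subunits, the nuclear subunits by complex and the assembly factors in 3 comparisons, with filled red points for genes past the adjusted p threshold, open points for the others and bars for the median; the 2 readthrough genes are left out. The mitochondrial median is 0.23 for clone A1, -0.154 for clone A2 and 0.348 between the WT pairs.

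The clones were also tested against each other in experiments 15 and 16, since both were compared with the same WT libraries. Against clone A1, 6 OXPHOS genes passed, each lower in clone A2, against 6.16% of all genes passing and 4.16% passing as lower. MT-ND2 stood at 16180 and 11720 CPM in clone A1 and at 8702 and 7435 CPM in clone A2, with WT between them at 10820 and 9802 CPM. Its difference of -0.79 (SE 0.136, edgeR adjusted p = 0.00479) was the largest of the OXPHOS genes, and it passed under all settings tried. MT-CO3 differed by -0.52 (SE 0.108, edgeR adjusted p = 0.00811). MT-ATP8 stood at 2872 and 2161 CPM in clone A1 and 1867 and 1732 CPM in clone A2, with a difference of -0.49 (SE 0.1095, edgeR adjusted p = 0.0238). Neither of the latter passed with DESeq2 (adjusted p = 0.0621 and 0.0857), which called 4 OXPHOS genes, and both were lost without clone A2 of experiment 16 (edgeR adjusted p = 0.0935 and 0.168). MT-ATP8 was lost without clone A2 of experiment 15 as well (edgeR adjusted p = 0.112).

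Among nuclear genes, NDUFA6 (-0.60, SE 0.0776, edgeR adjusted p = 0.000137), UQCR10 (-0.45, SE 0.0768, edgeR adjusted p = 0.00157) and NDUFB5 (-0.30, SE 0.0663, edgeR adjusted p = 0.00996) were lower in clone A2. Medians within 10 Mb were -0.52, -0.50 and -0.01. NDUFB5 stood at 64.72 and 59.55 CPM in clone A1 and 50.05 and 50.7 CPM in clone A2, and its call was lost without clone A1 of experiment 15 (edgeR adjusted p = 0.113) or clone A2 of experiment 15 (0.0685). All 13 mitochondrial differences were negative, with a median of -0.393 against 0.0121 for nuclear subunits. With the block 21 OXPHOS genes differed (4 higher, 17 lower, 9 of the latter mitochondrial), against 14.0% of all genes. Without clone A1 of experiment 16 the unblocked count was 16, including all 13 mitochondrial genes, and without clone A2 of experiment 16 it was 4.

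With both clones of experiments 15 and 16 joined as KO, 6 OXPHOS genes passed, each a nuclear subunit gene that fell, against 9.99% of all genes passing and 5.13% passing as lower. They were ATP5F1D (-0.37, SE 0.0808, edgeR adjusted p = 0.0140), COX5A (-0.36, SE 0.0689, edgeR adjusted p = 0.00729), NDUFS7 (-0.30, SE 0.0764, edgeR adjusted p = 0.0259), UQCRFS1 (-0.28, SE 0.0638, edgeR adjusted p = 0.0161), ATP5MK (-0.28, SE 0.0799, edgeR adjusted p = 0.0431) and COX6B1 (-0.25, SE 0.0720, edgeR adjusted p = 0.0460). They came from complexes I, III, IV and V, and no mitochondrial gene passed (median 0.0375). By position, 4 of the 6 lie on chromosome 19 (ATP5F1D, NDUFS7, UQCRFS1 and COX6B1), with ATP5F1D and NDUFS7 close neighbours. Of all 970 genes tested on chromosome 19, 21.0% passed as lower here, against 3.94% of the 12950 others, and the nuclear subunit genes gave 4 of 10 on it and 2 of 71 elsewhere. The median of the genes within 10 Mb was below 0 around each of the 6, from -0.22 (COX5A) and -0.21 (ATP5MK) to -0.17 (COX6B1) and -0.12 (UQCRFS1), and its part in the result was not tested. The count was 0 without WT of experiment 15, 1 without WT of experiment 16, 3 without clone A2 of experiment 16, and 4 with clone A1 of experiment 16 left out. With the block 7 passed, against 10.4% of all genes.

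In experiments 10 and 11, which hold clone A1 but not clone A2, no OXPHOS gene passed in clone A1 against WT, with 0.0862% of all genes passing. At an unadjusted p under 0.05 there were 14, and DESeq2 called 0. The genes that fell in experiments 15 and 16 had log2 fold changes of 0.03 (COX5A), -0.01 (UQCRFS1), -0.18 (ATP5F1D), -0.21 (NDUFS7) and -0.03 (ATP5MK) here. With the block 5 passed, against 1.65% of all genes: MT-ND2 (0.25, edgeR adjusted p = 0.00202) and MT-ATP8 (0.21, 0.0395) were higher, and the complex I accessory subunits NDUFB7 (-0.38, 0.00170), NDUFA13 (-0.30, 0.0165) and NDUFA11 (-0.28, 0.0332) were lower. Without WT of experiment 10 the unblocked count was 33 (10 higher, 23 lower), and without WT of experiment 11 it was 1. In these fits the WT arm is 1 library and is assumed to vary as the 2 clone A1 libraries do.

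The change of the clone A1 effect between the experiment pairs was tested directly, as an interaction. No OXPHOS gene passed, with 2.50% of all genes passing, and there were 10 at an unadjusted p under 0.05 and 0 with DESeq2. COX5A (-0.32, edgeR adjusted p = 0.115) and UQCRFS1 (-0.32, edgeR adjusted p = 0.114) had changes of nearly the size of their fall in experiments 15 and 16. With the block both passed (edgeR adjusted p = 0.0112 and 0.0124) among 7 OXPHOS genes, against 8.96% of all genes, with MT-ND4 (0.27, 0.0255), ATP5MC1 (0.29, 0.0291), NDUFB8 (0.25, 0.0475) and NDUFB7 (0.29, 0.0497) higher and NDUFAF4, an assembly factor of complex I, lower (-0.34, 0.0387). Leaving out WT of experiment 10 gave an unblocked count of 3, and leaving out clone A1 of experiment 16 gave 2.

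Over all experiments, 6 KO against 4 WT libraries, no OXPHOS gene passed and 0.00% of all genes did, with 7 OXPHOS genes at an unadjusted p under 0.05 and 0 by DESeq2. With the block the count was also 0, against 0.697% of all genes. All 13 mitochondrial genes had positive values, with a median of 0.118, but this comparison holds a larger part of experiments 15 and 16 on the KO side. Within the pairs the median was 0.0599 in experiments 10 and 11 (9 of 13 positive) and 0.0375 in 15 and 16 (10 of 13 positive). By range, 3 nuclear genes were lower in every KO than in every WT library, against 1.51% of all genes that did not overlap in either direction: ATP5MC2, NDUFA7 and NDUFS7. NDUFA7, an accessory subunit of complex I, stood at 69.73 to 79.29 CPM in WT and 57.4 to 69.5 CPM in KO, with a log2 fold change of -0.20 (SE 0.0666, edgeR adjusted p = 0.576). ATP5MC2 stood at 286.8 to 309.9 CPM in WT and 251.7 to 283.8 CPM in KO, and NDUFS7 at 62.94 to 71.74 CPM and 49.47 to 61.3 CPM. In the 4 WT against 4 clone A1 libraries NDUFB10 was added to these, 4 of 108, against 2.74% of all genes.

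Complex II is encoded by SDHA, the flavoprotein, SDHB, the iron-sulfur subunit, and SDHC and SDHD, the membrane anchors. None of these passed edgeR's test without the block in the comparisons made. With the block SDHD was lower in clone A2 against WT (-0.15, SE 0.0480, edgeR adjusted p = 0.0256), and DESeq2 called SDHA lower in WT of experiments 15 and 16 than of 10 and 11 (-0.19, adjusted p = 0.0363). In clone A1 against WT of experiments 15 and 16 their log2 fold changes were -0.06, -0.08, 0.04 and -0.05, and in clone A2 they were 0.05, -0.06, 0.04 and -0.15. Standard errors were 0.0584 to 0.0653 in these fits. Per length in WT, SDHA stood at 119 ± 9.74 CPM per kb (SD, n = 4), SDHB at 75.4 ± 11.1, SDHC at 96.2 ± 4.02 and SDHD at 54.8 ± 2.64.

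WT libraries themselves differed between the experiment pairs. In WT of experiments 15 and 16 against WT of 10 and 11, 18 OXPHOS genes passed and each rose (DESeq2 called 19 higher and 2 lower), against 16.4% of all genes passing and 8.61% passing as higher. Of these 7 were mitochondrial (of 13), 8 were nuclear subunits of complex I (of 37), 1 was of complex V (of 17) and 2 were assembly factors (of 12), while complexes II, III and IV had none among their nuclear subunits. SDHAF4, an assembly factor of complex II, stood at 12.28 and 9.689 CPM in experiments 10 and 11 and at 18.32 and 16.32 CPM in 15 and 16, a log2 fold change of 0.66 (SE 0.125, edgeR adjusted p = 0.00241). MT-ATP8 stood at 1436 and 1444 CPM and at 2295 and 2172 CPM, with 0.63 (SE 0.0968, edgeR adjusted p = 0.000601). MT-ND5 (0.52, edgeR adjusted p = 0.00659), MT-ND4 (0.52, edgeR adjusted p = 0.00941) and MT-ND4L (0.52, edgeR adjusted p = 0.00324) were the other large values. MT-ND4L passed in all 10 fits without 1 library, whereas MT-ND4 was lost without WT of experiment 10, 11 or 15 (edgeR adjusted p up to 0.0809) and MT-ND5 without WT of experiment 10 or 15 (up to 0.0611). The groups did not overlap for these genes.

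NDUFA5, an accessory subunit of complex I, stood at 48.72 and 42.86 CPM in WT of experiments 10 and 11 and at 59.36 and 67.29 CPM in 15 and 16 (0.47, edgeR adjusted p = 0.00202). ATP5MC1, of the c ring of complex V, stood at 47.59 and 50.95 CPM and at 69.22 and 63.16 CPM (0.42, edgeR adjusted p = 0.00275), while ATP5MC2 (-0.09) and ATP5MC3 (0.01), which encode the same mature protein, did not pass. NDUFB5 (0.37, edgeR adjusted p = 0.00269) and NDUFAB1 (0.34, edgeR adjusted p = 0.00632) also rose. The call of NDUFAB1 was lost without WT of experiment 15 (edgeR adjusted p = 0.106). The median was 0.348 for mitochondrial genes and 0.0416 for nuclear subunits. The 3 markers of fibroblasts and endothelium had a median of -0.719 here, with 1 of them passing as lower. The count was 6 without WT of experiment 15 and 12 without WT of experiment 16. Over WT and clone A1 together, 32 OXPHOS genes were higher and 6 lower in every library of experiments 15 and 16 than in every one of 10 and 11, against 34.1% of all genes that did not overlap. The 32 held 11 of the 13 mitochondrial genes, all but MT-CYB and MT-ND1, and the 6 were all nuclear subunit genes. With clone A2 added to experiments 15 and 16, 25 were higher and 6 lower, against 29.8% of all genes.

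Other nuclear genes of the pathway were counted by list in experiments 15 and 16, where clone A1 and clone A2 share their WT libraries and 13.2% and 21.2% of all genes passed. Of 25 genes of mitochondrial DNA maintenance and transcription, 1 rose and 3 fell in clone A1, and 3 rose and 6 fell in clone A2. TWNK, the replicative helicase, fell by 0.49 in clone A1 (edgeR adjusted p = 0.00127) and fell by 0.37 in clone A2 (edgeR adjusted p = 0.00469). MTERF1, a transcription termination factor, fell by 0.43 and fell by 0.45 (edgeR adjusted p = 0.00704 and 0.00309), and POLRMT, the mitochondrial RNA polymerase, fell by 0.31 and fell by 0.22 (edgeR adjusted p = 0.0133 and 0.0442). PRIMPOL, a primase-polymerase, rose in both (0.33 and 0.30, edgeR adjusted p = 0.0372 and 0.0390). The list's medians were -0.00796 and -0.0412, near those of all genes (0.00257 and 0.00427).

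Set against the same 13.2% and 21.2% of all genes passing, of 22 genes of mitochondrial RNA processing and stability, 1 fell in clone A1 (PTCD1, -0.25, edgeR adjusted p = 0.0275) and 2 rose in clone A2: HSD17B10, a subunit of mitochondrial RNase P (0.33, edgeR adjusted p = 0.00235), and GRSF1, an RNA-granule protein (0.20, edgeR adjusted p = 0.0180). Of 19 transcriptional regulators of OXPHOS genes, 1 rose and 1 fell in clone A1, and 1 rose and 2 fell in clone A2. PPARGC1A, the coactivator PGC-1 alpha, rose by 0.68 in clone A1 and 0.83 in clone A2 (edgeR adjusted p = 0.0216 and 0.00352). Its relative PPRC1 fell by 0.44 and fell by 0.36 (edgeR adjusted p = 0.000686 and 0.00142). The 2 coactivators thus moved in opposite directions in both clones.

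Against 13.2% and 21.2% of all genes passing in clone A1 and clone A2, of 52 genes of cytochrome c, coenzyme Q and complex assembly, 1 rose and 6 fell in clone A1, and 2 rose and 7 fell in clone A2. SCO2, a copper chaperone of complex IV, fell by 1.06 in clone A1 (edgeR adjusted p = 5.92e-05) and fell by 1.20 in clone A2 (edgeR adjusted p = 7.71e-06), more than any OXPHOS subunit gene that passed. COQ8A, of coenzyme Q synthesis, fell by 0.53 and fell by 0.59 (edgeR adjusted p = 8.31e-05 and 1.31e-05). SURF1, an assembly factor of complex IV, rose by 0.33 and 0.36 (edgeR adjusted p = 0.0147 and 0.00475). Of 77 mitochondrial ribosomal proteins, 1 rose and 6 fell in clone A1, and 3 rose and 5 fell in clone A2. MRPS2 rose in both (0.24 and 0.41, edgeR adjusted p = 0.0174 and 0.000234), MRPL4 had the deepest fall in clone A1 (-0.36, edgeR adjusted p = 0.00664) and MRPL40 in clone A2 (-0.49, edgeR adjusted p = 0.000747). Neither of these lists passed at more than about the rate of all genes. In experiments 10 and 11 no gene of these 5 lists passed in clone A1 (edgeR), where 0.0862% of all genes did. Medians of neighbouring genes, as given above for OXPHOS genes, were not computed for these lists. Falls that a gene shares with its neighbours therefore cannot be told apart from others in them.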

How the data were processed

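RNA from T47D spheroids (4 WT, 4 clone A1 and 2 clone A2 libraries) was prepared with a stranded mRNA kit that selects polyadenylated RNA. Per the labels and the study's methods, the authors used HISAT2 with GRCh38 and NCBI's annotation, and dropped every gene that had a 0 in any library. What they deposited are whole-number read counts for each gene, not normalized. The labels' processing notes also name StringTie. The counting program, its strand setting and its handling of reads that match several genes are not given in the sources used here, and the labels and the methods name different RNA extraction kits. Groups came from the sample titles, and experiment numbers from the same titles.

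Symbols were found for 13885 of the 13920 genes. Shares were computed from raw counts, and CPM is edgeR's, the count scaled to the library total times its TMM factor. Lengths of each gene's canonical GENCODE transcript gave CPM per kb. Tests used edgeR 4.0.16 (R 4.3.3) with TMM factors of 0.97561 to 1.0447 and the robust quasi-likelihood test on all genes. WT, clone A1 and clone A2 of experiments 15 and 16 shared 1 fit, experiments 10 and 11 had their own, and the interaction and the WT pairs came from 1 fit of 5 groups. Benjamini-Hochberg adjustment ran over the whole table, and the threshold was 0.05. Standard errors are the fold change divided by the root of F. Sums and shares over the chosen genes have no p-value. The OXPHOS genes and the other gene lists were chosen with earlier results of these data known. The text names the mitochondrial genes, SDHA to SDHD, isoform groups, and in each comparison up to 5 genes in each direction by fold change (up to 3 for the other lists). NDUFA5, NDUFA7, NDUFB10, ATP5PD, NDUFAF4 and others outside this rule were named after their values were seen. Alternatives were DESeq2 1.42.0, RLE factors, a mean count of at least 10, library sizes from nuclear genes, a replicate block, and leaving out each library in turn.

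Whether experiment numbers pair the libraries was checked by the correlation over genes of deviations from the group means. It was 0.468, 0.474, 0.526 and 0.524 for WT and clone A1 of experiments 10, 11, 15 and 16, all above 0.1. WT and clone A1 of different experiments within a pair gave nearly as much, 0.399 to 0.461. Most of this correlation thus went with the experiment pair and not with the experiment number. For clone A2 the correlation within the same experiment was 0.0208 and 0.159 with WT and 0.00803 and 0.0909 with clone A1. Once the mean of each experiment pair was also removed, the correlations were 0.0844 (experiments 10 and 11) and 0.134 (15 and 16) for WT and clone A1, 0.151 for clone A2 with WT and 0.103 for clone A2 with clone A1. Of 45 pairs of libraries none agreed within sampling noise (lowest chi-square per degree of freedom 6.74). On simulated counts, 200 of the 13920 genes were changed by a log2 fold of 1. In the design of clone A1 and WT of experiments 15 and 16, edgeR found 197 of them beside 27 false calls. It found 190 beside 13 false calls in that of experiments 10 and 11, and 179 beside 8 over all experiments. The largest difference of an OXPHOS gene that passed was -0.79 (MT-ND2). Recovery of changes as small as those reported here was therefore not simulated.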

Additional observations from a re-analysis of the deposited data

Results flagged for a closer look

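In groups of 4 to 6 libraries, 243 groups over 81 series of values were searched for a library that stood apart from the rest by Dixon's criterion, and 9 were found. By chance about 1 in 20 independent groups would be found. These groups are not independent, since KO holds clone A1 and many series are shares of the same total. The 9 therefore cannot be set against that rate. ATP5MK stood at 80.36 CPM in clone A1 of experiment 16, against 99.26 to 100.9 CPM in the other clone A1 libraries. SDHB stood at 59.91 CPM in WT of experiment 11, against 79.9 to 83.76 CPM in the other WT libraries.

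Clone A1 of experiment 15 stood apart in 4 measures. MT-CYB was at 8306 CPM there against 4182 to 5717 CPM in the other KO libraries, and MT-ND3 at 1387 CPM against 860.7 to 1032 CPM. Nuclear OXPHOS subunit genes held 1.093% of its nuclear counts against 1.011% to 1.022% in the other clone A1 libraries, and complex II held 5.795% of its nuclear OXPHOS counts against 6.425% to 6.531%. This library also had the highest mitochondrial share of all counts.

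The remaining 3 were WT libraries and shares of the nuclear OXPHOS counts. Complex I held 28.31% in experiment 10 against 29.96% to 30.05% in the others, complex III 12.58% in experiment 15 against 12.25% to 12.28%, and complex IV 17.24% in experiment 16 against 17.65% to 17.68%.

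The effect of the clones differed for 6 genes by the direct test of clone A2 against clone A1 (edgeR quasi-likelihood). The log2 differences were -0.79 for MT-ND2, -0.60 for NDUFA6, -0.52 for MT-CO3, -0.49 for MT-ATP8, -0.45 for UQCR10 and -0.30 for NDUFB5.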

How the results depend on the processing

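No value past the threshold for a single OXPHOS gene changed direction: of 593 alternatives to 49 fold changes, 495 kept the call and 98 lost it. The alternatives were not examined for genes of the other lists. The replicate block by experiment number raised the count of OXPHOS genes passing to 25 in experiments 15 and 16 for clone A1 against WT (from 6), to 36 for clone A2 against WT (from 13), to 21 for clone A2 against clone A1 (from 6), to 5 in experiments 10 and 11 (from 0) and to 7 for the interaction (from 0). It gave 7 for the joined clones in experiments 15 and 16 (from 6) and 0 for all experiments. No paired analysis was possible for the WT pairs because the experiments are there the groups compared. DESeq2, RLE factors, the count filter and nuclear library sizes kept each count within 1.5 times. Leaving out 1 library gave 2 to 16 for clone A1, 6 to 19 for clone A2, 4 to 16 for clone A2 against clone A1, 0 to 7 for the joined clones, 0 to 33 in experiments 10 and 11, 0 over all experiments, 0 to 3 for the interaction and 6 to 25 for the WT pairs. The difference of KO from WT in mitochondrial share was 0.0908 to 1.34 percentage points of all counts (0.854 with all libraries) and 0.297 to 1.17 points of OXPHOS counts (0.786). That in nuclear share was -0.0209 to 0.00173 points (-0.0115 with all libraries), and 0.0203 points when counts were divided by length. With 2 libraries a group, the tests rest on few residual degrees of freedom, and a group left with 1 library is assumed to vary like the others.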
